A study of Mus musculus with 14 samples.

Results

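The erythroid transcription factors examined here are 9 genes chosen by symbol as listed regulators of the lineage: Gata1, Klf1, Tal1, Nfe2, Zfpm1, Gfi1b, Lmo2, Bcl11a and Myb. All 9 are present among the 32589 features of the purchased sections and among the 19465 features of the sections from the C1qa cross. Transcripts were captured by probes on Visium slides from 14 formalin-fixed, paraffin-embedded mouse sections, in which each spot is a small disc of tissue that can hold several cells. A level is given as CPM, the member's unique molecular identifiers (UMIs) summed over the in-tissue spots with at least 1000 genes, per 1000000 UMIs of the same spots. In such sums fewer cells of a type and less RNA per cell cannot be told apart.

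The 6 purchased sections came from wild-type mice bought from a vendor, 1 section each. They are fetal livers at E13.5 and E14.5, leg bone marrow at P8, bone marrow at 89 weeks, bone marrow of a 6-month-old mouse decalcified in EDTA, and an adult spleen. The 8 cross sections came from intercrossed C1qa heterozygotes and hold wild-type and C1qa knockout tissue, 2 sections per group. These are E14.5 fetal livers numbered 2 and 4, where the number is the dam, and spleens numbered 1 and 2, from 3-month-old mice by the labels. A supplementary figure legend of the study gives these spleens another age, while its reporting summary gives normal spleens the age of the labels. C1qa encodes a chain of complement C1q that macrophages make. The deletion is carried by all cells of the mouse.

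Red cells arise from progenitors shared with megakaryocytes, and a small circuit of DNA-binding proteins and their cofactors sets this choice. Gata1 is the master factor of both lineages, and Zfpm1 (FOG-1) is the cofactor that binds it. Tal1 and Lmo2 form a complex with Gata1 at erythroid genes, Klf1 activates adult beta-globin and membrane genes, and Nfe2 acts at the beta-globin control region and in platelet formation. Gfi1b is a repressor needed in both lineages. Myb maintains proliferating progenitors, while Bcl11a silences globin genes of earlier developmental stages in red cells and is also required for B cells.

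The labels were checked first. C1qa was read at 95.9 and 25.8 CPM in the wild-type livers of dams 2 and 4. The wild-type spleens 1 and 2 held 218 and 269 CPM, while each of the 4 knockout sections held 1 or 2 C1qa UMIs. All 17 measured genes of an erythroid marker list of 18, which contains no member and no globin, were detected in every section. Their summed level was 7792 to 8806 CPM in the purchased fetal livers and 770 CPM in the purchased spleen. Passing spots held 4225805 to 56182915 UMIs per section, apart from the EDTA-decalcified marrow, where 15 of 814 in-tissue spots passed with 37167 UMIs. Sections of one tissue were not alike. Spots were called liver where hepatocyte genes supplied 0.5% or more of their UMIs. They were 94.4% and 96.7% of passing spots in wild-type and knockout fetal liver 2, but 30.1% and 63.2% in wild-type and knockout fetal liver 4. The embryonic globins Hbb-y, Hbb-bh1 and Hba-x summed to 6443 CPM in wild-type fetal liver 4 against 62.3, 127 and 459 CPM in the other cross fetal livers, and its labelled age could not be checked further. In the spleens, digestive enzyme genes of the exocrine pancreas, 10 of 10 detected in each cross spleen, summed to 76.6 and 1121 CPM in the wild types, against 4541 and 30498 CPM without C1qa. For the comparisons that rest on these sections, alternatives without them or limited to liver or pancreas-free spots are given below.

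The windows just upstream of the transcription start are shown for 5 members, because these members carry differences described below. They are the 250 bases before a transcription start listed in RefSeq on build GRCm38.p6, written 5′ to 3′ along the gene. Capitals mark matches on either strand to AGATAA, a form of the GATA-factor motif, or to the CACCC-box motif CCNCNCCC. The first follows Gata1 on the minus strand at chrX:7967911-7968160, then Klf1 on the plus strand at chr8:84901732-84901981, Tal1 on the plus strand at chr4:115056176-115056425 for the first of its listed starts, Gfi1b on the minus strand at chr2:28621983-28622232, and Bcl11a on the plus strand at chr11:24080445-24080694.
Gata1: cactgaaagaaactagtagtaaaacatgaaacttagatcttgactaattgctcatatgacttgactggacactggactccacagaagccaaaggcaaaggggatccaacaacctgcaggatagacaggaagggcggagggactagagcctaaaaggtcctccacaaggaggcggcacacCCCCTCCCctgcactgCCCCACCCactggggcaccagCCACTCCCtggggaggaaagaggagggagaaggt
Klf1: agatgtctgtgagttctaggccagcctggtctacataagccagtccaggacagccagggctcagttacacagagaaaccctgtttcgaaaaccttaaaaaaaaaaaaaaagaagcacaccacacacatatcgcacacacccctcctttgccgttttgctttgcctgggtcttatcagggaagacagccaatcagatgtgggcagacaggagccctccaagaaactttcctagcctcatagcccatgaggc
Tal1: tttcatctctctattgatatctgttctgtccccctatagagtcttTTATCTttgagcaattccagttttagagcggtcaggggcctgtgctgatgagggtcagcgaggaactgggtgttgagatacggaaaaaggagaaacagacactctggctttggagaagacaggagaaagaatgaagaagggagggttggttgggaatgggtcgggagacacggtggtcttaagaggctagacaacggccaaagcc
Gfi1b: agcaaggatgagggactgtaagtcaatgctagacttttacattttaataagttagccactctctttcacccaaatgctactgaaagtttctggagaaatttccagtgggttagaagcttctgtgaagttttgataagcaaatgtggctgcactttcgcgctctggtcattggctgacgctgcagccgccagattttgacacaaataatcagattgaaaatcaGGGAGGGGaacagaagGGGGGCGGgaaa
Bcl11a: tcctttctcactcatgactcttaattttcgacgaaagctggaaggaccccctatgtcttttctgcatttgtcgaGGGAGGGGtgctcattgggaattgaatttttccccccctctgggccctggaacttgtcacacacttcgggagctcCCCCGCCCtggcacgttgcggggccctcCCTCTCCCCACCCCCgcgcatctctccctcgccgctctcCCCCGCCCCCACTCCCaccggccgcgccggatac

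RefSeq windows were found for 7 of the 9 members, with 8 windows in all, and Nfe2 and Lmo2 had none in the table. The Gata1 and Bcl11a windows lie inside the annotated genes, whose 5′ ends are upstream at chrX:7976663 and chr11:24076564. The sequence before those ends was not read. The Gata1 window held 3 CACCC matches and the Gfi1b window 2, while the Bcl11a window held 8, some of them overlapping. The Klf1 window held no match to AGATAA or CCNCNCCC. The only AGATAA match among the 8 windows lay 199 bases before the first Tal1 start. Other GATA sequences were not searched and stay unmarked, for example ttatca in the Klf1 window and tgataa in the Gfi1b window. The second Tal1 start and Zfpm1 had 4 CACCC matches each, and Myb had 3. Of all 32851 promoter windows of the same length, 9.99% held AGATAA and 45.9% held CCNCNCCC, so a CACCC match is common. No member window held the NF-E2 motif TGANTCA, found in 6.75% of all windows, on either strand. The E-box CANNTG, present in 66.2% of windows, occurred in those of Gata1, Klf1, Gfi1b and Bcl11a. These are letters in a window and not measured binding.

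The purchased sections give the range of each factor across blood-forming tissues, with 1 section per tissue and therefore no replicate check. Levels and orders are over all passing spots. In the P8 leg section only 40.5% of these met the marrow limit described below. In those spots the P8 levels were higher, at 133 CPM for Gata1, 79.0 CPM for Tal1 and 123 CPM for Zfpm1. The ratio of 89 weeks to P8 was then 1.12 for Gata1, and the order of the 2 marrows changed for Tal1 and Zfpm1. Gata1 stood at 266 CPM in the E13.5 fetal liver and 292 CPM in the E14.5 fetal liver, at 149 CPM in the 89-week marrow and 88.0 CPM in the P8 marrow, and at 31.1 CPM in the spleen. Its order was fetal liver, marrow, spleen, and only the 2 fetal livers lay closer together than the spread between replicate sections of the cross (pooled SD 0.36 on the log2 scale). Tal1 followed the same order, with 191 and 181 CPM in the E13.5 and E14.5 livers, 65.7 and 50.9 CPM in the 89-week and P8 marrows and 12.9 CPM in the spleen. Neither its 2 livers nor its 2 marrows differed by more than the replicate spread. Nfe2 stood at 156 and 206 CPM in the E13.5 and E14.5 livers, 100.4 CPM in the 89-week marrow, 60.5 CPM in the P8 marrow and 14.3 CPM in the spleen. Its replicate spread was the widest of the members, 0.74 on the log2 scale, and within it only the spleen stood apart from its neighbour.

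Klf1, the globin activator, was the member whose every step in the order exceeded the replicate spread. Klf1 stood at 284 CPM in the E13.5 liver, 206 CPM in the E14.5 liver, 82.9 CPM in the P8 marrow, 43.7 CPM in the 89-week marrow and 12.8 CPM in the spleen (pooled SD 0.37 on the log2 scale). Gfi1b stood at 119 and 167 CPM in the E13.5 and E14.5 livers, 64.7 and 61.8 CPM in the P8 and 89-week marrows, which did not differ beyond the spread, and 22.2 CPM in the spleen. Zfpm1 stood at 258 and 251 CPM in the E13.5 and E14.5 livers, 95.4 and 83.5 CPM in the 89-week and P8 marrows and 50.9 CPM in the spleen. For Klf1, Gfi1b and Zfpm1 too the spleen was lowest.

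Lmo2, Bcl11a and Myb did not share that order. Lmo2 stood at 257 and 219 CPM in the E14.5 and E13.5 livers and 207 CPM in the 89-week marrow, none of which differed beyond the spread, then at 133 CPM in the spleen and 89.0 CPM in the P8 marrow. In marrow spots alone its P8 level was 133 CPM, near that of the spleen. Bcl11a was highest in the spleen at 183 CPM, with 115 and 114 CPM in the E13.5 and E14.5 livers and 29.8 and 13.4 CPM in the P8 and 89-week marrows. Myb stood at 310.2 CPM in the 89-week marrow, and at 82.4 to 103 CPM in the other 4 sections, whose neighbours in the order did not differ beyond the spread. In marrow spots alone the P8 level of Myb was 129 CPM. Spleen is rich in B cells, and the 11 B-cell genes measured, without Bcl11a, summed to 8214 CPM in this spleen against 820 CPM in the 89-week marrow and 13.2 and 16.0 CPM in the E13.5 and E14.5 livers. The part of these cells in the Bcl11a level was not tested.

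**Figure D1:**
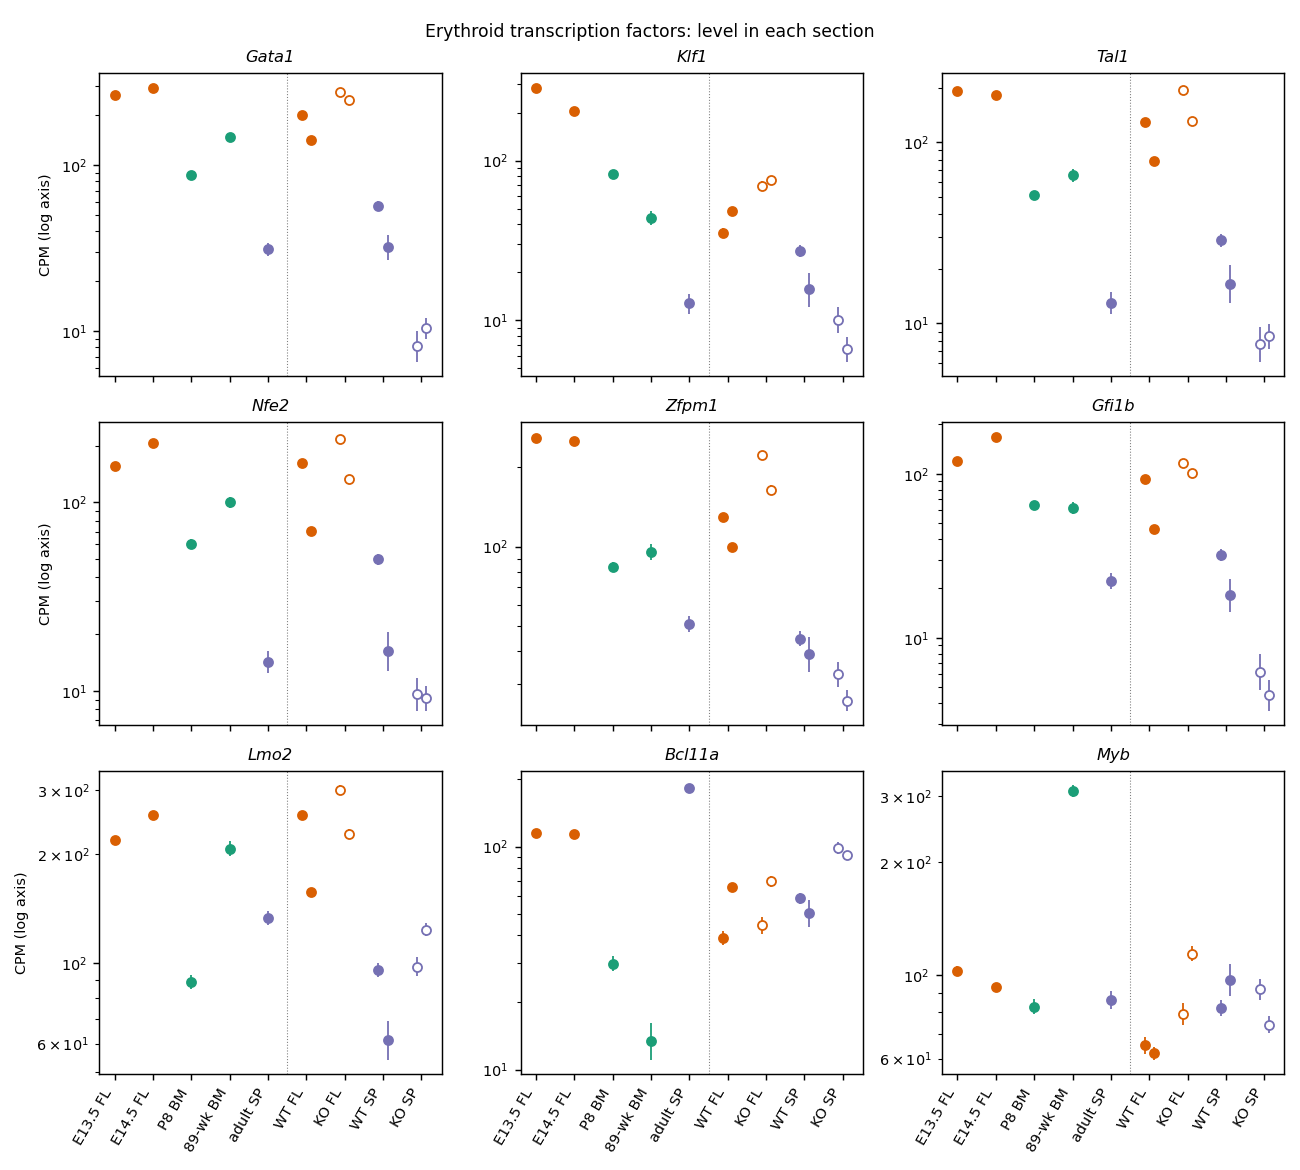
Each panel plots 1 factor in CPM (log axis) in the 13 sections other than the EDTA-decalcified marrow; bars are 95% Poisson intervals, orange is fetal liver, green bone marrow, purple spleen, open symbols C1qa knockout, and a dotted line divides the purchased from the cross sections, which were not compared directly. Gata1 runs from 8.12 CPM in knockout spleen 1 to 292 CPM in the purchased E14.5 liver, while Myb lies between 62.0 and 114 CPM in all sections but the 89-week marrow.

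No member passed a 2-fold difference between the E14.5 and E13.5 fetal livers, where 0.471% of 9759 genes were at least 2-fold higher and 0.410% at least 2-fold lower. The members' ratios ran from 0.726 for Klf1 to 1.40 for Gfi1b. Between the purchased spleen and the E14.5 liver, 6 of 9 members were at least 2-fold lower, from Klf1 at a ratio of 0.0666 to Zfpm1 at 0.206, beside 11.2% of 11159 genes. None was at least 2-fold higher, beside 40.7% of genes. Lmo2 had a ratio of 0.520, Myb of 0.924 and Bcl11a of 1.60.

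The 2 marrow sections differed for another set of members. In the 89-week marrow Myb was 3.73-fold and Lmo2 2.32-fold the P8 level, which makes 2 of 9 members at least 2-fold higher beside 13.1% of 11162 genes. Bcl11a, at a ratio of 0.467, was the 1 member at least 2-fold lower, beside 25.6% of genes. Klf1 had a ratio of 0.534 and Gata1 of 1.69. The P8 section of a leg also contains muscle, cartilage and skin, whose marker genes summed to 36059 CPM against 16.8 CPM at 89 weeks, and only 439 of its 1085 passing spots (40.5%) met the marrow limit of 0.5% of UMIs from neutrophil genes. Read in marrow spots of both sections, a setting added after seeing the data, the ratios of 89 weeks to P8 changed. Myb was still more than 2-fold higher, at 2.41, but Lmo2 was not, at 1.56 (133 CPM at P8 and 207 CPM at 89 weeks). Klf1, at 0.348, joined Bcl11a, at 0.306, below a ratio of 0.5, and the other members lay between 0.615 for Gfi1b and 1.12 for Gata1. In the EDTA-decalcified marrow the members' counts were too low to order, with 8 UMIs of Gata1, 9 of Tal1, 7 each of Nfe2 and Myb, 3 of Gfi1b, 1 of Lmo2 and 0 of Klf1, Zfpm1 and Bcl11a, where a count of 0 allows up to 3 UMIs.

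The cross allows the same tissues to be compared with replicates. Wild-type fetal liver was higher than wild-type spleen for 6 of the 9 members in edgeR's quasi-likelihood test, with Benjamini-Hochberg adjustment over 18986 genes, beside 18.2% of all genes, and no member was lower. Gata1 was read at 201 and 141 CPM in the livers, against 57.2 and 32.2 CPM in spleens 1 and 2. The groups did not overlap, and the log2 difference was 3.01 ± 0.61 (SE, adjusted p = 0.0199). Tal1, at 129 and 78.5 CPM in the livers and 28.7 and 16.6 CPM in the spleens, gave 3.29 ± 0.66 (adjusted p = 0.0196). The groups were apart for Klf1 as well, with 35.1 and 48.4 CPM in the livers and 27.1 and 15.6 CPM in the spleens and a log2 difference of 1.91 ± 0.40 (adjusted p = 0.0205). Zfpm1 was higher by 2.52 (adjusted p = 0.0185), Gfi1b by 2.60 (adjusted p = 0.0411) and Lmo2 by 2.50 (adjusted p = 0.0320).

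The TMM scaling enlarges these differences, since for Gata1 the gap between the mean CPM values is 1.95 on the log2 scale.

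Nfe2 missed the threshold at 2.96 ± 0.92 (adjusted p = 0.0532) with 162 and 70.4 CPM in the livers and 49.9 and 16.3 CPM in the spleens, and Bcl11a missed it at 0.86 ± 0.27 (adjusted p = 0.0539). Myb gave 0.53 ± 0.39 (adjusted p = 0.306). The sign of the last 2 comes with the scaling, since the CPM values were not higher in liver. Bcl11a stood at 39.0 and 65.9 CPM in the livers and 58.6 and 50.2 CPM in the spleens, and Myb at 65.1 and 62.0 CPM against 81.8 and 97.5 CPM. Of 19 erythroid target genes 9 passed as higher in fetal liver, and of 26 partner genes 8 were higher and 1 lower. Tissue and age cannot be told apart here. The members' median log2 difference of 2.52 was 3.06 without wild-type fetal liver 4 and 1.58 without wild-type fetal liver 2. Scaling by upper quartiles lowered the median of all genes from −0.04 to −0.72, left 3 members higher and turned the split of all called genes from 3452 higher and 5344 lower to 1549 and 7250. Restricting the livers to liver spots gave 9 members higher, and without spleen 1 or without spleen 2 no gene passed, with 5449 and 6378 genes at an unadjusted p under 0.05.

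C1qa knockout spleen held less mRNA of the core erythroid factors than wild-type spleen and more Bcl11a and Lmo2. Of the 9 members 7 passed the edgeR test with adjustment over 18895 genes, 5 lower and 2 higher, beside 20.6% of all genes called in either direction, 6.79% lower and 13.8% higher. The members' median log2 difference was −1.19, against −0.08 for all genes tested. Because members were picked as erythroid regulators and erythroid marker genes moved too, these counts describe the list.

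Gata1 was read at 57.2 and 32.2 CPM (1141 and 136 UMIs) in wild-type spleens 1 and 2, against 8.12 and 10.4 CPM in knockout spleens 1 and 2 (86 and 190 UMIs). Both knockout spleens lay below both wild-type spleens, the knockout mean was 4.83-fold lower, and the log2 difference was −2.03 ± 0.24 (SE, adjusted p = 2.88e-05). Gfi1b, the repressor of the circuit, stood at 32.0 and 18.2 CPM in the wild types and fell to 6.23 and 4.49 CPM. Its log2 difference of −2.05 ± 0.27 (adjusted p = 6.01e-05) was close to that of Gata1, and the groups were again apart. Nfe2 had 49.9 and 16.3 CPM in the wild-type and 9.63 and 9.15 CPM in the knockout spleens, a difference of −1.64 ± 0.31 (adjusted p = 0.00142). The 2 wild-type spleens were further from each other in Nfe2 than in any other member, and without wild-type spleen 1 its difference was −0.54 (adjusted p = 0.286). In DESeq2 Nfe2 also missed the threshold (adjusted p = 0.129).

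Tal1 stood at 28.7 and 16.6 CPM in the wild-type and 7.65 and 8.49 CPM in the knockout spleens, with a log2 difference of −1.27 ± 0.25 (adjusted p = 0.00186). Klf1 stood at 27.1 and 15.6 CPM in the wild types, against 10.1 and 6.57 CPM without C1qa, a difference of −1.19 ± 0.26 (adjusted p = 0.00398). For both genes the groups did not overlap, and both lost the call without wild-type spleen 1 (Tal1 −0.77, adjusted p = 0.126; Klf1 −0.68, adjusted p = 0.193). Klf1 also lost it without knockout spleen 2 (−0.98, adjusted p = 0.134). The Gata1 cofactor Zfpm1, whose levels of 44.6 and 39.0 CPM (wild types) and 32.7 and 26.0 CPM (knockouts) did not overlap either, had a log2 difference of −0.28 ± 0.17 (adjusted p = 0.230).

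Bcl11a went the other way, from 58.6 and 50.2 CPM in wild type to 98.7 and 91.4 CPM in knockout, with a log2 difference of 1.05 ± 0.17 (adjusted p = 0.000358). Lmo2, the bridge of the Tal1 complex, stood at 95.9 and 61.3 CPM in the wild types, against 97.9 and 124 CPM without C1qa. Wild-type spleen 1 and knockout spleen 1 were nearly equal, and the difference of 0.75 ± 0.20 (adjusted p = 0.0158) fell to 0.46 (adjusted p = 0.400) without knockout spleen 2. Myb overlapped between the groups, at 81.8 and 97.5 CPM (wild types) and 91.8 and 73.9 CPM (knockouts), with a difference of 0.14 ± 0.17 (adjusted p = 0.514) and a ratio of mean CPM of 0.925.

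**Figure D2:**
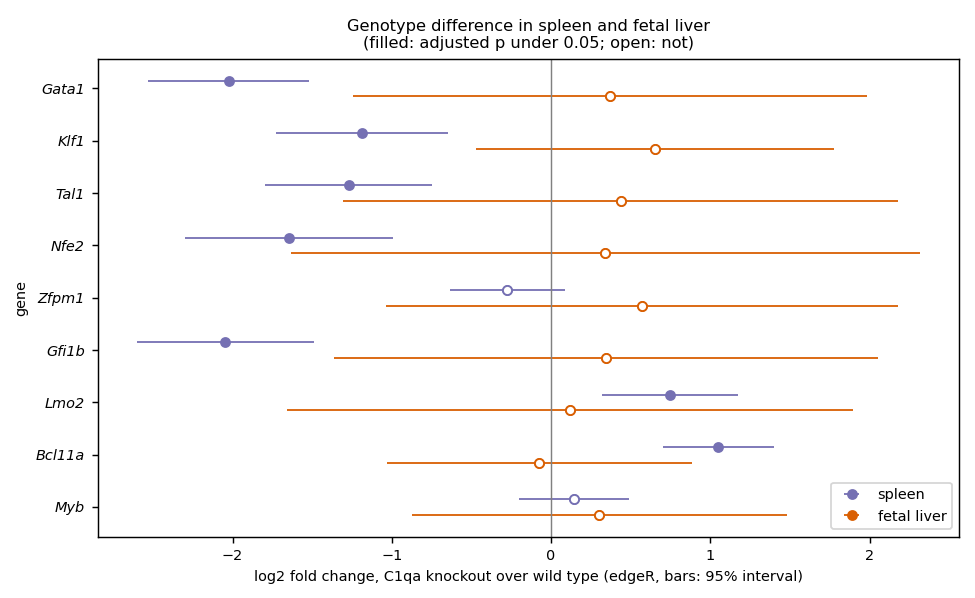
Log2 difference of each factor, C1qa knockout minus wild type, in spleen and in E14.5 fetal liver (2 sections per group); bars are 95% intervals and filled symbols have an adjusted p under 0.05. In spleen the values run from −2.05 for Gfi1b to 1.05 for Bcl11a, and in fetal liver every interval spans 0.

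Other genes of the circuit were read in the same fit. Of 19 measured target genes of these factors, 17 were lower in knockout spleen and none higher, with a median of −1.59. Among those with the smallest adjusted p were the membrane skeleton genes Dmtn (−3.12, adjusted p = 3.71e-07) and Ank1 (−2.24, adjusted p = 1.08e-05), the anion exchanger Slc4a1 (−3.16, adjusted p = 1.38e-06) and the erythroid nuclear gene Hemgn (−2.74, adjusted p = 1.17e-05). Slc4a1, the band 3 protein, went from 559 and 253 CPM in wild type to 31.0 and 44.1 CPM in knockout. Of 26 measured cofactors, partners and opposing factors 6 were called, a share near the 20.6% of all genes, and the median was 0.12. Sox6, which acts with Bcl11a at globin genes, was lower (−1.30, adjusted p = 0.00140). Higher were Mllt3 (1.45, adjusted p = 0.000348), the E protein Tcf12 (0.60, adjusted p = 0.0214), the myeloid and B-cell factor Spi1 (0.55, adjusted p = 0.0248), the corepressor Rcor1 (0.57, adjusted p = 0.0394) and the megakaryocyte factor Fli1 (0.54, adjusted p = 0.0490).

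Marker lists moved with these members. The erythroid list summed to 4501 and 1636 CPM in the wild types, against 552 and 972 CPM in knockout spleens 1 and 2, a mean 4.03-fold lower in knockout, with none of its 17 genes at 0 in any spleen. Adult globins were 2.94-fold lower and the 13 megakaryocyte genes 1.89-fold lower. The 11 neutrophil genes were 5.35-fold lower, from 696 and 618 CPM to 94.3 and 151 CPM. B-cell genes were read at 6937 and 5966 CPM in the wild types, against 8348 and 7174 CPM without C1qa. Set against the erythroid list itself, Gata1 held 127 and 197 UMIs per 10000 list UMIs (wild types) and 147 and 107 (knockouts). Gfi1b held 71.1 and 111 (wild types) and 113 and 46.2 (knockouts). On that scale the groups overlapped for both genes. Klf1 overlapped as well, at 60.2 and 95.5 (wild types) and 183 and 67.7 (knockouts). The part of cell make-up in the members' differences was otherwise not tested.

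With the pancreas spots left out 7 members were called. Within the part of each spleen poorest in B-cell genes, 1 of 3 equal parts, the median of the members was −1.71 with 6 called, and Bcl11a was still higher (1.36, adjusted p = 0.00364), while Lmo2 stood at 0.06 (adjusted p = 0.899). A fit of all 8 cross sections, in which the more variable fetal livers share the estimate of spread, called no gene (1373 at an unadjusted p under 0.05), with the members' median at −1.14. With the dam as a block in the same fit 6 members, 5 lower and 1 higher, and 1247 genes were called, and 4 members were called without wild-type spleen 1 or without knockout spleen 2. Upper-quartile scaling moved the median of all genes to −0.37 and that of the members to −1.47, with 2 members higher and 6 lower, and turned the split of all called genes from 2603 higher and 1283 lower to 1197 and 4400.

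No member was called in fetal liver, in a fit that could call very little. The deleted gene itself, C1qa, at 1 UMI in each knockout liver, had an adjusted p of 1.00 in it (unadjusted p = 0.000129). None of the 9 members was called between knockout and wild-type fetal livers, and neither was any of 18986 genes (0%) in edgeR. At an unadjusted p under 0.05 there were 138 genes and no member, and DESeq2 called 7 genes and no member. Gata1 stood at 201 and 141 CPM in wild-type livers 2 and 4 and at 276 and 248 CPM in knockout livers 2 and 4. Both knockout livers were higher, but the log2 difference of 0.37 had an interval from −1.25 to 1.98 (adjusted p = 1.00). Klf1, at 35.1 and 48.4 CPM (wild types) and 69.9 and 75.7 CPM (knockouts), gave 0.65 with an interval from −0.47 to 1.78. Tal1 at 0.44, Zfpm1 at 0.57, Nfe2 and Gfi1b at 0.34, Myb at 0.30, Lmo2 at 0.12 and Bcl11a at −0.07 were likewise within their error.

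For Gata1 and Gfi1b, whose lower bounds were −1.25 and −1.37, the spleen estimates lie outside the fetal liver interval. The same holds for Klf1, with a lower bound of −0.47, and narrowly for Nfe2, with −1.64 for both values, and for Bcl11a the upper bound of 0.89 is below the 1.05 of spleen. For Tal1 the lower bound of −1.31 lies below its spleen estimate of −1.27. The error of the spleen estimates is left aside here and enters the interaction test below. The variability of fetal livers was larger than that of spleens, with a common dispersion of 0.263 against 0.0245. When only liver spots were read, Gata1 stood at 208 and 328 CPM in wild-type livers 2 and 4 and at 283 and 335 CPM in knockout livers 2 and 4, so that the groups overlapped and the difference was 0.01 (interval −1.01 to 1.04). The median of the members went from 0.34 to 0.11 there. Over all passing spots it was −0.11 without wild-type fetal liver 4 and 0.87 without knockout fetal liver 4. With the dam as a block 157 genes were called and still no member, and Klf1 came nearest at 0.60 (adjusted p = 0.660).

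Whether the genotype effect itself differed between the tissues was tested as an interaction over the 8 cross sections. No member and none of 19180 genes (0%) was called by edgeR without a block, with 4 members and 2018 genes at an unadjusted p under 0.05 and 8 genes but no member called by DESeq2. The estimates, fetal liver minus spleen, were 2.39 for Gata1, 2.36 for Gfi1b, 1.79 for Klf1 and −1.13 for Bcl11a, all with an adjusted p of 0.454. These fits used all passing spots, of which 30.1% were liver spots in wild-type fetal liver 4. With the livers limited to liver spots and no block, no gene was called. The members' median was then 1.13 in place of 1.69. With the dam as a block in the fetal livers, whose numbers pair the samples, 6 of 9 members passed over all passing spots, beside 7.35% of genes. The interaction with the block was not run in liver spots. The 6 members were Gata1 (2.43 ± 0.37, adjusted p = 0.000698), Gfi1b (2.55, adjusted p = 0.000362), Nfe2 (2.07, adjusted p = 0.00991), Klf1 (1.77, adjusted p = 0.00792), Tal1 (1.71, adjusted p = 0.00590) and, in the opposite direction, Bcl11a (−1.14, adjusted p = 0.0201). Zfpm1 (0.80, adjusted p = 0.0870), Lmo2 (−0.59, adjusted p = 0.248) and Myb (0.22, adjusted p = 0.604) did not pass.

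Within a section, spots show which members lie together with which cells. The spots of each cross section were divided into 3 equal parts by their share of UMIs from a marker list, and the top part was compared with the bottom part, with the section as a block and the list's own genes removed. In spleen, 5 of 9 members were higher in erythroid-rich spots beside 7.38% of 18466 genes. Gata1 was 13.0-fold and 8.70-fold higher in the rich part of wild-type spleens 1 and 2, and 3.78-fold and 6.27-fold higher in that of knockout spleens 1 and 2. The fitted log2 difference was 3.16 ± 0.27 (adjusted p = 7.09e-05). Gfi1b (2.69, adjusted p = 9.48e-05), Nfe2 (2.33, adjusted p = 0.000156), Tal1 (2.16, adjusted p = 0.000145) and Klf1 (1.10, adjusted p = 0.00118) were also higher in all 4 spleens. Zfpm1 (0.58), Lmo2 (0.30), Bcl11a (−0.56) and Myb (−0.17) did not pass. The purchased spleen, fitted in no test, had folds of 10.3 for Klf1 and 6.37 for Gata1, with Lmo2 at 0.947 and Bcl11a at 0.696.

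**Figure D3:**
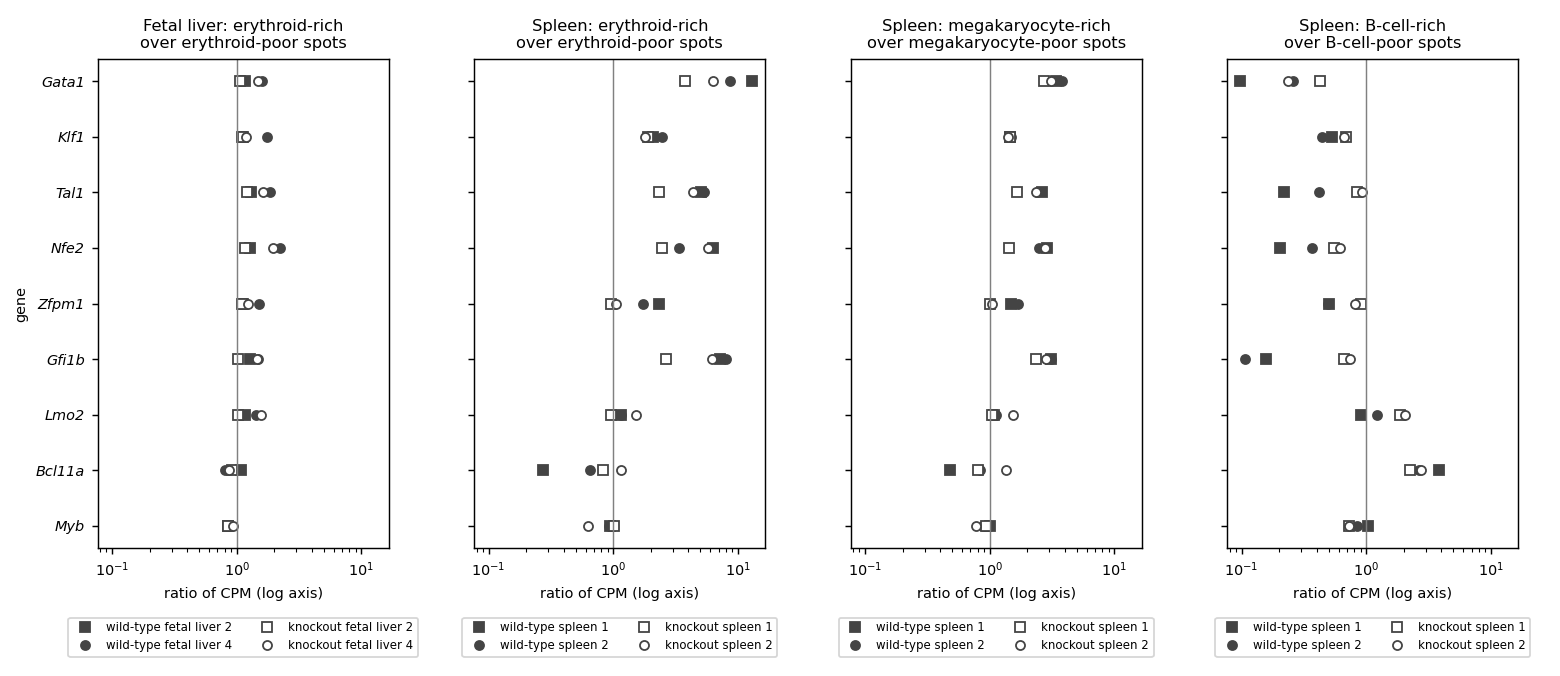
Ratio of CPM between list-rich and list-poor spots (log axis) for each factor in the cross sections, 1 symbol per section (filled wild type, open knockout). The panels show the erythroid split of fetal liver and the erythroid, megakaryocyte and B-cell splits of spleen, and a grey line marks equal levels. Gata1 reaches 13.0 in erythroid-rich spots of wild-type spleen 1, and Bcl11a lies between 2.25 and 3.82 in B-cell-rich spots of the 4 cross spleens.

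The fetal liver split was made within liver spots, while the spleen split used all passing spots, so their sizes are not set against each other. Within liver spots, 7 of 9 members were higher in erythroid-rich spots beside 3.36% of 17497 genes. The differences ran from 0.50 for Zfpm1 (adjusted p = 0.0238) and 0.55 for Klf1 (adjusted p = 0.0399) to 0.75 for Tal1 (adjusted p = 0.0112) and 0.87 for Nfe2 (adjusted p = 0.0153). Gata1 was 1.17-fold and 1.59-fold higher in wild-type livers 2 and 4 and 1.06-fold and 1.48-fold higher in knockout livers 2 and 4, a log2 difference of 0.59 ± 0.11 (adjusted p = 0.0178). Lmo2 was among the members called (0.56, adjusted p = 0.0178). Bcl11a (0.06) and Myb (0.00) gave values near 0. Over all passing spots, which include tissue around the liver, the members' median was 2.59 in place of 0.56, with no member called (5744 genes at an unadjusted p under 0.05). In the purchased E13.5 and E14.5 livers Gata1 had ratios of 1.08 and 1.01. No member and 1 of 13289 genes was called without knockout fetal liver 4 (2299 genes at an unadjusted p under 0.05), and 2 were called without wild-type fetal liver 4. In the P8 marrow spots Tal1 had a ratio of 4.45 and Nfe2 of 5.59, and Bcl11a and Myb had ratios of 2.39 and 2.44.

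Several of these factors also drive megakaryocytes, which release platelets. In spleen, 5 of 9 members were higher in megakaryocyte-rich spots beside 5.83% of 18463 genes. The log2 differences were 1.79 ± 0.13 for Gata1 (adjusted p = 2.93e-06), 1.63 for Gfi1b (adjusted p = 2.65e-05), 1.39 for Nfe2 (adjusted p = 0.000180), 1.28 for Tal1 (adjusted p = 0.000198) and 0.59 for Klf1 (adjusted p = 0.0181). In fetal liver, Nfe2 (0.40, adjusted p = 0.0204) and Gfi1b (0.29, adjusted p = 0.0243) passed, 2 of 9 beside 2.78% of 17366 genes. That count rested on single sections, since none passed without wild-type or without knockout fetal liver 4 and 7 passed without wild-type fetal liver 2. Klf1 is mainly an erythroid factor, while the other 4 act in both lineages. Erythroid and megakaryocyte genes can share spots, so the erythroid and megakaryocyte splits are not independent.

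B-cell-rich spots of the spleen gave the reverse. Of the 9 members only Bcl11a was higher there, 1 of 9 beside 3.67% of 18455 genes, and 7 were lower beside 4.57%. Bcl11a was 3.82-fold and 2.65-fold higher in wild-type spleens 1 and 2 and 2.25-fold and 2.75-fold higher in knockout spleens 1 and 2, a log2 difference of 1.32 ± 0.12 (adjusted p = 0.000446). Gata1 was lower by −2.62 ± 0.32 (adjusted p = 0.00132), and Gfi1b (−2.06, adjusted p = 0.0138), Nfe2 (−1.68, adjusted p = 0.00644), Tal1 (−1.31, adjusted p = 0.0497), Klf1 (adjusted p = 0.00558), Zfpm1 (−0.77, adjusted p = 0.0221) and Myb (−0.44, adjusted p = 0.0445) were lower as well. Without wild-type spleen 2 there were 4 calls.

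Lmo2 was the exception in both directions, with 0.37 and an adjusted p of 0.286. Its ratio of B-cell-rich to B-cell-poor spots was 0.914 and 1.22 in the wild-type spleens but 1.87 and 2.04 in the knockout spleens. In knockout spleen 1 it stood at 128 CPM in the rich and 68.2 CPM in the poor part, and in knockout spleen 2 at 161 and 78.7 CPM. The difference between genotypes in this ratio was not tested.

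**Figure D4:**
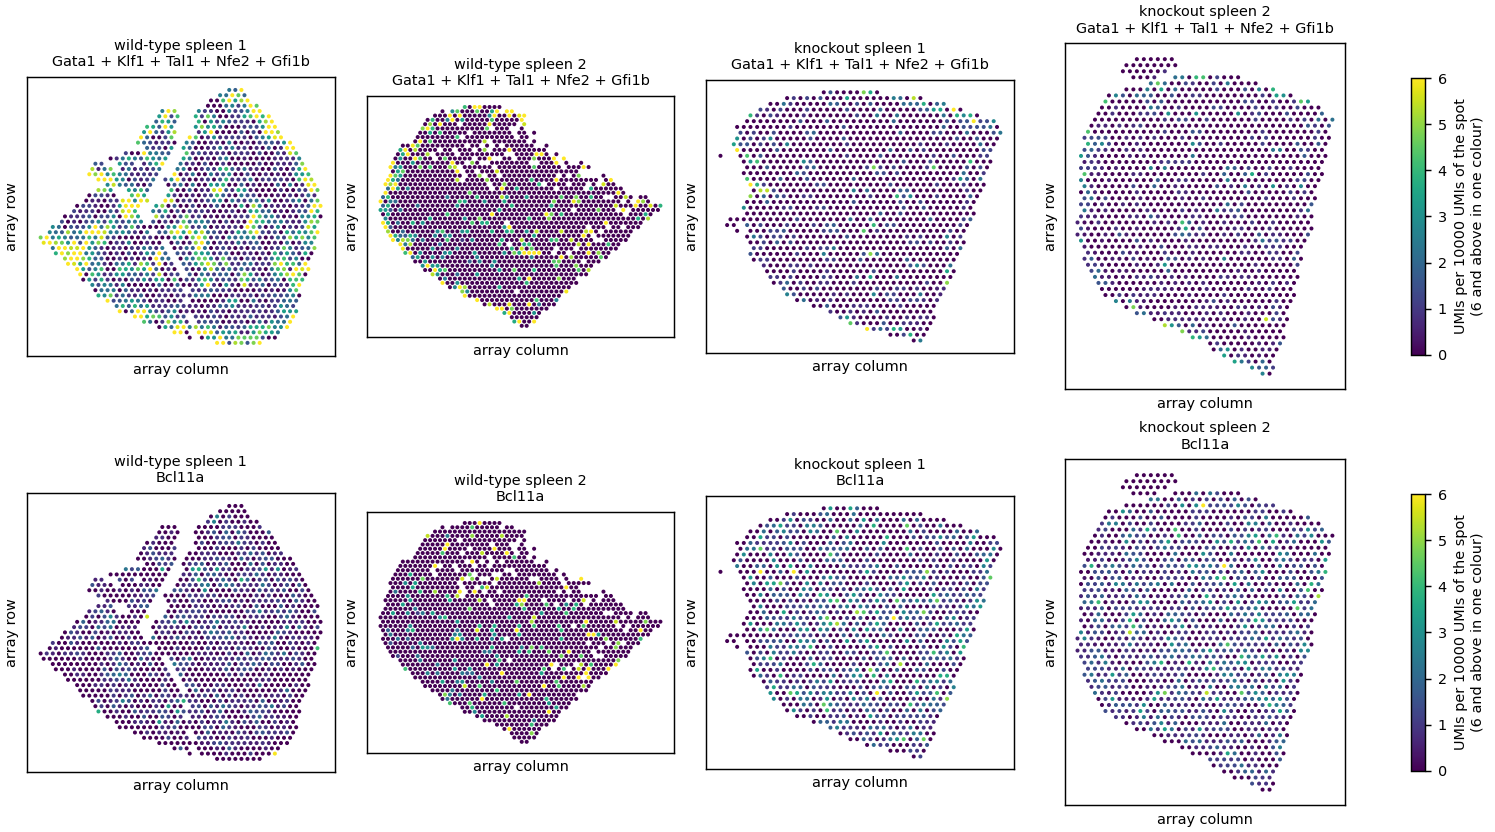
Maps of the 4 cross spleens, each point 1 spot at its place in the array; colour is UMIs per 10000 UMIs of the spot, capped at 6, for the sum of Gata1, Klf1, Tal1, Nfe2 and Gfi1b in the top row and for Bcl11a in the bottom row. Summed over passing spots, Gata1 stood at 8.12 and 10.4 CPM in the knockout spleens and Bcl11a at 98.7 and 91.4 CPM. The colour of a spot with few UMIs also depends on its depth, so shades cannot be compared directly between sections. The median was 2098 UMIs per in-tissue spot in wild-type spleen 2 and 12139 in knockout spleen 2.

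Across the 13 sections other than the EDTA-decalcified marrow, the members fell into a tight group and 3 genes that stood off. Likeness was measured as Pearson's r of log2(CPM + 1), centred within the purchased and the cross sets, and is a description because sections share tissue, depth and probe set. Gata1 correlated with Gfi1b at 0.984, with Tal1 at 0.983 and with Nfe2 at 0.977, and Tal1 with Nfe2 at 0.985. Klf1 was looser, at 0.884 with Gata1, and Lmo2 looser still at 0.748. Bcl11a at −0.29 and Myb at 0.04 did not follow Gata1, and Bcl11a and Myb stood at −0.57 to each other.

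Among the 10752 genes compared, members aside, those most like Gata1 were the heme enzyme Alad (r = 0.996), the proliferation marker Mki67 (0.991) and Hemgn (0.989). For Tal1 they were the heme enzyme Urod (0.995), Tmem56 (0.993) and the blood group gene Xk (0.993), and for Nfe2 the mitochondrial transporter Abcb10 (0.992), Urod (0.988) and Mki67 (0.987). Gfi1b was nearest to the membrane skeleton gene Add2 (0.983), Alad (0.982) and Hemgn (0.981), and Klf1 to Ninl (0.981), Tlcd1 (0.978) and the adhesion molecule Icam4 (0.976). Zfpm1 was nearest to Stx2 (0.990), the copper transporter Atp7b (0.989) and Slc30a10 (0.987). Lmo2 had Tab3 (0.982), Lpin2 (0.966) and Bola3 (0.946), and Bcl11a had Usp24 (0.959), Tmem251 (0.948) and the chromatin remodeller Chd7 (0.947). The genes most like Myb were Ly6g6f (0.948), the platelet collagen receptor Gp6 (0.925) and Rgs18 (0.904), which are known from platelets and megakaryocytes. Myb itself was highest in the 89-week marrow, where the 13 megakaryocyte genes summed to 2664 CPM, against 494 to 1030 CPM in the other 4 purchased sections. The 11 neutrophil genes (27388 CPM against 430 to 7041 CPM) and the 6 primary granule genes (3660 CPM against 133 to 1049 CPM) were highest there too, and Myb was not called in either megakaryocyte split.

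**Figure D5:**
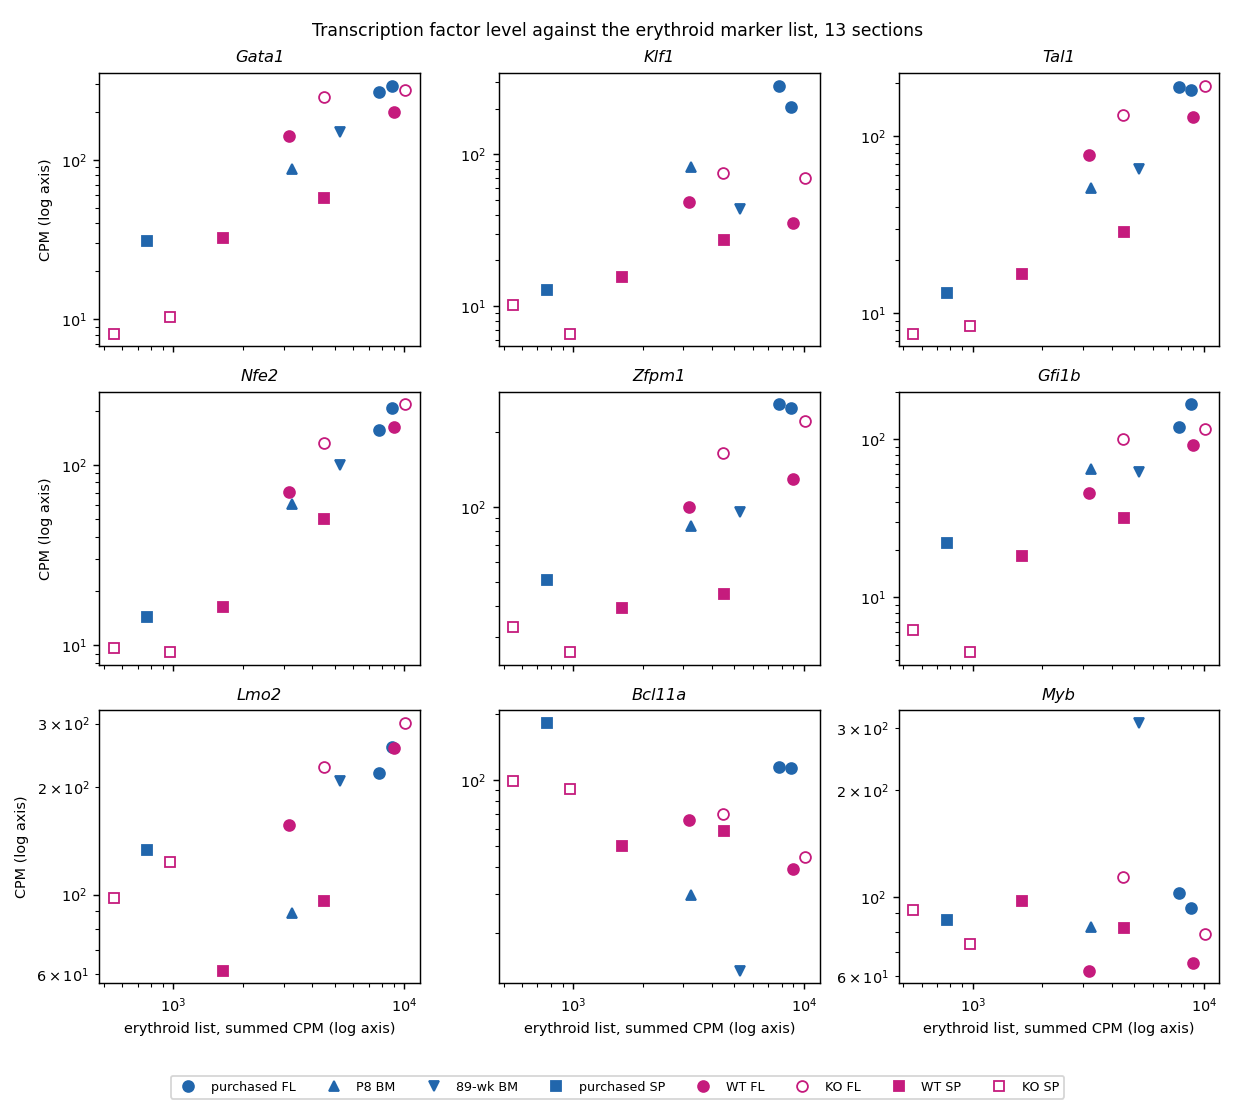
Level of each factor in CPM against the summed CPM of the erythroid marker list (log axes) in 13 sections; blue is purchased, magenta the cross, circles fetal liver, triangles bone marrow, squares spleen, open symbols knockout. The knockout spleens lie at the lower left for Gata1, Tal1, Nfe2 and Gfi1b, at 552 and 972 CPM of the list. The purchased fetal livers and cross fetal livers numbered 2 lie farthest right, at 7792 to 10109 CPM. Wild-type and knockout fetal liver 4, at 3177 and 4476 CPM, lie left of wild-type spleen 1 at 4501 CPM. Myb shows no such order along the list.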

How the data were processed

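The authors deposited raw UMI counts per gene and spot from Visium probe libraries (Space Ranger, build mm10, per the labels), with tables of spot positions and scale values. The file headers give Cell Ranger 4 or Space Ranger 2.1.1 and 3.1.2 for purchased sections and Space Ranger 4.0.1 for the cross, and the 2 sets have different feature tables, so they were never tested together. Counts of in-tissue spots with at least 1000 genes were summed per section, giving 37167 to 56182915 UMIs. Intervals on levels are exact Poisson intervals and cover counting error only. Tests were run on the whole table with edgeR 4.0.16 in R 4.3.3 (filterByExpr, TMM, quasi-likelihood, Benjamini-Hochberg, threshold 0.05), with DESeq2 1.42.0 as an alternative, after a check on simulated data. That check was modelled on the spleens only, with a dispersion near theirs. It does not cover the more variable fits that include fetal livers. With 1 purchased section per tissue, a fold of 2 replaced a test.

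The study ties fetal liver numbers to dams, and same-numbered livers deviated together (r = 0.696 over 19238 genes), while spleens did not (r = 0.0567). The main fetal liver and interaction fits had no block and leave this pairing out. The dam was a block in alternative fits only. Other settings were scaling, filters, spot sets, thinning and leaving out each section. P-values measure only the spread between sections. Named genes were all 9 members, up to 6 partners or targets with the smallest adjusted p per genotype comparison, and for each member the 3 most similar genes with a mean of at least 5 CPM. Some genes that this rule names are not reported here. The members and lists were chosen with earlier results of these data known. The spot splits used liver spots in fetal liver and all passing spots in spleen.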

Additional observations from a re-analysis of the deposited data

Results flagged for a closer look

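The EDTA-decalcified marrow held member UMIs outside the spots the report used. Its 799 in-tissue spots with under 1000 genes contained 294 UMIs of the 9 members among 412716 UMIs, or 712 CPM. Over all in-tissue spots of that section Gata1 stood at 151 CPM, Nfe2 at 131 CPM, Myb at 129 CPM, Gfi1b at 93.4 CPM, Tal1 and Lmo2 at 73.4 CPM, Zfpm1 at 55.6 CPM, Klf1 at 22.2 CPM and Bcl11a at 2.22 CPM. The section has no control of its own, and the level exceeds the 3 UMIs that a count of 0 allows.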

How the results depend on the processing

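Of 92 alternative counts of called members, 74 stayed within 1.5 times the reported one. These include 15 of 15 for genotype in fetal liver and 10 of 11 for the interaction, where a count of 0 stayed 0. The fetal liver fit could call very little, so its agreement carries little weight. Of 828 single-gene values 691 kept their direction and their side of the threshold, 73 lost the call, 33 gained one and 31 changed sign, none of which had been called. Among the 691 were 116 values for genotype in fetal liver and 88 for the interaction, where no member had a call to lose. In spleen the count of 7 fell to 0 in the joint fit of 8 sections (median −1.14 in place of −1.19), was 6 in that fit with the replicate block, and ranged from 4 to 7 with 1 spleen left out; the replicate block there changed no call. The interaction count of 0 became 6 with the replicate block in the fetal livers over all passing spots, and stayed 0 in liver spots without that block. Fetal liver against spleen went from 6 to 3 with upper-quartile scaling and ranged from 0 to 9 with 1 section left out. The erythroid split of fetal liver fell from 7 to 0 over all passing spots, where the median rose from 0.56 to 2.59 (0 to 7 with 1 section left out), and the megakaryocyte split from 2 to 0 over all passing spots, where the median rose from 0.25 to 1.73, and to 1 in DESeq2, and rose to 4 when spots were cut into 2 parts (0 to 7). The B-cell split ranged from 4 to 8. Leaving out 1 section moved the members' median from −1.48 to −0.54 in spleen and from −0.33 to 1.23 in fetal liver. The cause of these shifts was not tested.

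Among single genes that changed sign, upper-quartile scaling gave −0.14 for Myb in spleen, 0.14 for Bcl11a in fetal liver and −0.17 for Myb in fetal liver against spleen. Liver spots gave −0.14 for Lmo2 and −0.023 for Myb in the fetal liver comparison, −0.29 for Myb in the interaction and, with the replicate block added after seeing the data, −0.015 for Gata1, −0.014 for Myb and −0.19 for Lmo2. In the erythroid split of fetal liver the globin split gave −0.079 for Bcl11a and keeping the list gave −5.42e-05 for Myb. With 1 section left out, fetal liver differences ranged from −0.33 to 1.23 for Gata1, −0.56 to 1.45 for Tal1, −0.77 to 1.74 for Nfe2, −0.33 to 1.34 for Zfpm1, −0.40 to 1.59 for Gfi1b, −0.76 to 1.13 for Lmo2, −0.27 to 0.11 for Bcl11a and −0.060 to 0.86 for Myb. The interaction ranged from −0.046 to 1.57 for Zfpm1, −1.50 to 0.34 for Lmo2 and −0.21 to 0.69 for Myb. For Myb the splits ranged from −0.0068 to 0.042 (erythroid, fetal liver), −0.30 to 0.042 (erythroid, spleen) and −0.30 to 0.0056 (megakaryocyte, spleen).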
